A study of Mus musculus with 8 samples.

Results

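The 9 genes described here carry the fluid and bicarbonate secretion of pancreatic ducts, and they were picked from the 24537 genes of the count table by symbol (Cftr, Ano1, Slc12a2, Slc4a4, Slc26a6, Car2, Car12, Aqp1 and Aqp5). All 9 were in the table and all 9 passed the filter on low counts. RNA came from EpCAM-positive cells that were sorted by FACS, without culture, from 8 pancreatic tumours of 8 mice on the FVB/NJ strain, with 1 library per tumour. Every mouse carried Pdx1-Cre, Trp53 f/f and the luciferase reporter Rosa26 LSL-Luc, and was 44 to 49 days old. Cre under the Pdx1 promoter acts in cells of the pancreatic epithelial lineage, so alleles in stromal and immune cells are not its targets. The 4 tumours labelled KO were Lifr f/f, and the 4 labelled WT were Lifr f/+ (replicates 1 and 2) or Lifr +/+ (replicates 3 and 4). Lifr codes for the receptor subunit of leukaemia inhibitory factor.

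Duct cells secrete a bicarbonate-rich fluid that rinses digestive enzymes out of the pancreas. Bicarbonate enters across the basolateral membrane with sodium or is made in the cell by carbonic anhydrase, and leaves at the apical membrane through chloride-bicarbonate exchange and the chloride channel CFTR, which opens in response to cyclic AMP. Water follows through aquaporins. In adult pancreas several of these genes serve as markers of duct epithelium.

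Each tumour had between 14938875 and 22698340 counts. Values are given as CPM, counts scaled to a library of 1000000 with TMM factors. Lifr itself was higher in the tumours labelled KO (183 ± 34.5 against 97.8 ± 22.2 CPM, SD, n = 4 each), so each direction below rests on the labels. A count over the full transcript says nothing of a deleted part. Epcam, the antigen of the sort, was at 421 ± 57.7 CPM in the tumours labelled KO and at 775 ± 96.5 CPM in those labelled WT. Of 25 epithelial genes tested, 17 fell and 0 rose, and the list held 0.346% to 0.463% of the counts of KO-labelled libraries and 0.649% to 0.927% of WT-labelled ones. Of 16 macrophage genes, 14 rose and 0 fell, with 2.43% to 3.01% of the counts against 1.13% to 1.87%. Sums of the 12 acinar genes took between 0.14% (KO replicate 4) and 2.97% (KO replicate 1) of the counts in the tumours labelled KO, and 0.0404% to 0.775% (WT replicate 2) in those labelled WT. In bulk RNA of a sort, fewer cells of a type and less RNA per cell cannot be told apart. The part of these other cells in the differences below was not tested unless a value is given.

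Of the duct secretion genes, the majority fell in the tumours labelled KO. Of the 9 genes, 6 fell and 0 rose, and 3 were not called (quasi-likelihood test of edgeR, adjusted after Benjamini and Hochberg over 14728 genes, threshold 0.05). Among all genes tested, 10.8% were called lower and 11.1% higher. The median log2 fold change of the 9 genes was −0.74, beside 0.012 over all genes tested. The 6 genes that fell were the water channels Aqp1 and Aqp5, the carbonic anhydrase Car2, the bicarbonate cotransporter Slc4a4, the calcium-activated chloride channel Ano1 and the chloride loader Slc12a2. In each of these 6 genes all 4 tumours labelled KO lay below all 4 labelled WT, which was so for 12.3% of all genes tested. Each of the 6 stayed called with any 1 tumour left out. Cftr and Car12 had lower means and Slc26a6 a higher mean in the tumours labelled KO, and none of these 3 was called. Of 15 duct identity genes, 8 fell, 0 rose and 7 were not called, and among the 8 was the duct keratin gene Krt19 (log2 fold change −0.87). The mean log2 CPM of that list differed by −0.57 (exact permutation p = 0.0286, adjusted p = 0.0644 over 9 lists), which did not pass the adjusted threshold.

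**Figure D1:**
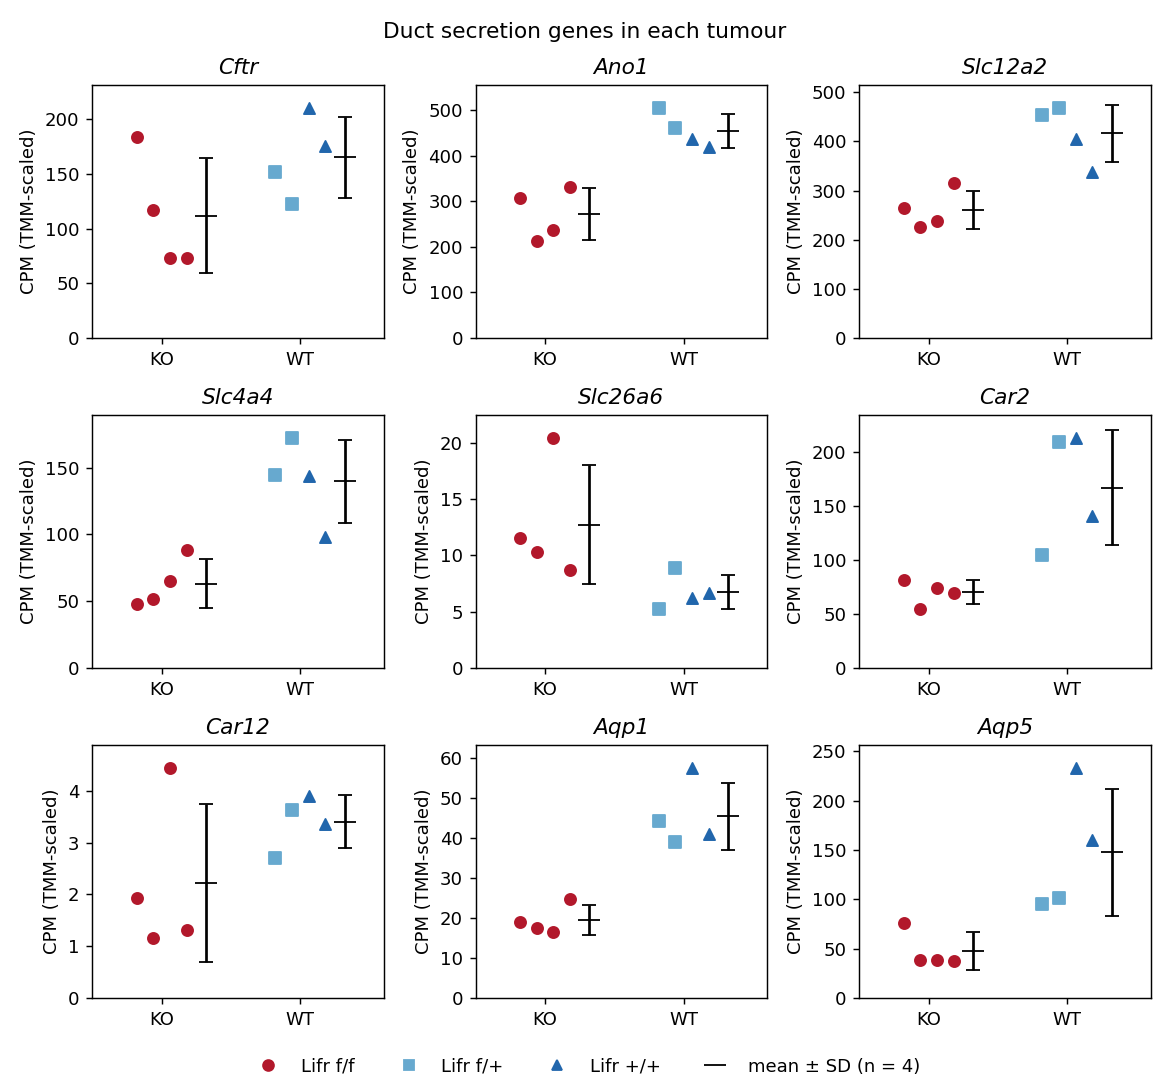
Level of each duct secretion gene in each tumour, as TMM-scaled CPM on an axis from 0, with points by Lifr genotype and the mean ± SD of 4 tumours beside them. Aqp1, Aqp5, Car2, Slc4a4, Ano1 and Slc12a2 separate the groups, while in Cftr, Car12 and Slc26a6 single tumours cross over (for example KO replicate 1 at 184 CPM of Cftr).

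Of the apical anion channels, Ano1 fell and Cftr was not called, and the ratio between them, given further on, overlapped between the groups. Ano1 codes for the calcium-activated chloride channel TMEM16A, counted on transcript NM_178642 (mm10 chr7:144588549-144738592, minus strand). It was at 307, 212, 236 and 331 CPM in KO replicates 1 to 4 and at 504, 459, 437 and 418 CPM in WT replicates 1 to 4. The highest tumour labelled KO lay below the lowest labelled WT, and the 4 tumours labelled WT were close to each other. Ano1 had a log2 fold change of −0.74 ± 0.15 (SE, edgeR adjusted p = 0.0117). The call was lost once acinar RNA, as mean log2 CPM of its list, entered the fit (−0.70, edgeR adjusted p = 0.0527).

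Cftr codes for the cyclic AMP-gated channel whose loss causes cystic fibrosis, and was counted on NM_021050 (mm10 chr6:18170687-18322769, plus strand). It was at 184, 117, 73.4 and 72.8 CPM in KO replicates 1 to 4 and at 152, 122, 210 and 175 CPM in WT replicates 1 to 4. KO replicate 1 lay above 3 of the 4 tumours labelled WT, while KO replicates 2, 3 and 4 lay below all of them. The log2 fold change of −0.56 ± 0.31 did not pass (SE, edgeR adjusted p = 0.228), with a 95% interval from −1.26 to 0.14. Without KO replicate 1 it was −0.92 and was called (edgeR adjusted p = 0.0404). KO replicate 1 also held the most acinar RNA of the 8 tumours. An antisense gene, Gm15592, overlaps 129 exonic bases of Cftr, which counting on 1 strand separates only if the libraries were stranded.

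On the basolateral side both loaders of the duct cell fell. Slc12a2 codes for NKCC1, which brings chloride into the cell with sodium and potassium (NM_009194, mm10 chr18:57878678-57946821, plus strand). It was at 264, 226, 237 and 314 CPM in KO replicates 1 to 4 and at 453, 468, 406 and 338 CPM in WT replicates 1 to 4. The groups did not overlap, but KO replicate 4 (314) and WT replicate 4 (338) were close. The log2 fold change was −0.68 ± 0.14 (SE, edgeR adjusted p = 0.0124). It was −0.62 and not called without KO replicate 1 and WT replicate 2, the tumours of each group with most acinar RNA (edgeR adjusted p = 0.0601).

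Slc4a4 codes for the sodium-bicarbonate cotransporter NBCe1, the main entry of bicarbonate into duct cells (NM_018760, mm10 chr5:88887260-89239656, plus strand). It was at 47.8, 51.8, 64.8 and 88.1 CPM in KO replicates 1 to 4 and at 145, 172, 144 and 97.8 CPM in WT replicates 1 to 4. Again the highest value labelled KO and the lowest labelled WT were those of replicate 4 in each group. Slc4a4 had a log2 fold change of −1.15 ± 0.23, a 2.21-fold lower level (SE, edgeR adjusted p = 0.0106).

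Slc26a6, the apical exchanger that trades chloride for bicarbonate, was the 1 gene of the 9 with a higher mean in the tumours labelled KO (NM_134420, mm10 chr9:108854043-108862143, plus strand). It was at 11.5, 10.3, 20.4 and 8.66 CPM in KO replicates 1 to 4 and at 5.26, 8.85, 6.23 and 6.66 CPM in WT replicates 1 to 4. The groups overlapped only through WT replicate 2, which lay above KO replicate 4, and KO replicate 3 stood highest. The log2 fold change of 0.91 ± 0.29 missed the threshold (SE, edgeR adjusted p = 0.053), and DESeq2 called it (0.90, adjusted p = 0.0118). It was also called by edgeR without KO replicate 4 (1.04, adjusted p = 0.0371) or WT replicate 2 (1.07, adjusted p = 0.0468). Without KO replicate 3 it was 0.59 and not called (edgeR adjusted p = 0.0937). Acinar RNA, as the list's mean log2 CPM, was 9.26, 6.62, 8.65 and 4.37 in KO replicates 1 to 4 and 3.33, 7.09, 1.67 and 2.82 in WT replicates 1 to 4. KO replicate 4 was lowest in both Slc26a6 and acinar RNA among the tumours labelled KO, and WT replicate 2 was highest in both among those labelled WT. Other tumours did not match in this way. KO replicate 1 had the most acinar RNA, but its Slc26a6 (11.5 CPM) was below that of KO replicate 3 (20.4 CPM). WT replicate 1 had the lowest Slc26a6 (5.26 CPM) but not the lowest acinar RNA among those labelled WT. With the acinar list as covariate the Slc26a6 log2 fold change was 0.40 (edgeR adjusted p = 0.427). The cause of the difference was not tested.

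Of the carbonic anhydrases, which interconvert carbon dioxide and bicarbonate, the cytosolic Car2 was abundant and fell, and the membrane-bound Car12 was scarce. Car2 (NM_009801, mm10 chr3:14886426-14900770, plus strand) was at 81.7, 55.0, 74.4 and 69.6 CPM in KO replicates 1 to 4 and at 104, 210, 213 and 141 CPM in WT replicates 1 to 4. The tumours labelled KO lay close together and below all of those labelled WT, which were more widely spread, with WT replicate 1 lowest. The log2 fold change was −1.25 ± 0.23, a 2.38-fold lower level (SE, edgeR adjusted p = 0.00879). Car12 (NM_178396, mm10 chr9:66713686-66766845, plus strand) rested on 17 to 87 counts per tumour. It was at 1.93, 1.16, 4.44 and 1.31 CPM in KO replicates 1 to 4 and at 2.71, 3.63, 3.90 and 3.36 CPM in WT replicates 1 to 4. KO replicate 3 was the highest of the 8 tumours and the other tumours labelled KO were the 3 lowest. Its log2 fold change was −0.63 ± 0.42 (SE, edgeR adjusted p = 0.31), and −1.20 and called without KO replicate 3 (edgeR adjusted p = 0.0259).

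Both water channels fell, and Aqp5 had the largest fold change of the 9 genes. Aqp5, the apical water channel of glands and intercalated ducts (NM_009701, mm10 chr15:99591028-99594829, plus strand), was at 76.3, 38.5, 38.1 and 37.5 CPM in KO replicates 1 to 4. In WT replicates 1 to 4 it was at 95.5, 101, 233 and 160 CPM. The groups did not overlap, KO replicate 1 stood well above the other tumours labelled KO, and the +/+ tumours (WT replicates 3 and 4) stood above the f/+ tumours. Aqp5 had a log2 fold change of −1.63 ± 0.35, a 3.10-fold lower level (SE, edgeR adjusted p = 0.0135). Its call was lost with the acinar list as covariate (−1.50, edgeR adjusted p = 0.102). Aqp1 (NM_007472, mm10 chr6:55336299-55348555, plus strand), a water channel of duct cells that endothelium and red cells also make, was at 19.0, 17.6, 16.4 and 24.8 CPM in KO replicates 1 to 4. In WT replicates 1 to 4 it was at 44.2, 38.9, 57.6 and 40.9 CPM. The groups were far apart, and Aqp1 had the smallest p of the 9 genes (log2 fold change −1.22 ± 0.17, SE, edgeR adjusted p = 0.0044).

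Endothelial markers were low in all 8 tumours. The 12 genes of that list took 0.00266% to 0.00571% of the counts, and of the 10 tested 0 rose and 1 fell, Sox17 (log2 fold change −2.13). Pecam1, an adhesion molecule in that list, was at 8.52 ± 0.505 and 7.42 ± 1.98 CPM in the tumours labelled KO and WT (SD, n = 4 each, edgeR adjusted p = 0.523). With the endothelial list as covariate the Aqp1 difference was −1.25. Of 10 erythroid genes, 2 passed the filter on low counts and neither was called.

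The sequences at the start sites of 4 of these genes are shown. Aqp5, with the largest fall, and Slc26a6, with the rise in mean, are the extremes of the comparison. Cftr and Car12 are the 2 of the 7 windows searched with a match to letters like a cyclic AMP response element (CRE). RefSeq windows of 300 bases, from 250 before to 50 after the start (GRCm38.p6, the assembly of mm10), were searched for 7 of the 9 genes. Car2 had no such window, and Slc12a2 was left out of the search. The windows shown lie at chr6:18170437-18170736 (Cftr), chr9:66713436-66713735 (Car12), chr15:99590778-99591077 (Aqp5) and chr9:108853793-108854092 (Slc26a6), all on the plus strand and each at the start of the counted transcript. Capitals mark matches to GGGCGG (a GC box) or to TGACNTCA (a CRE-like element), searched on both strands.
Cftr: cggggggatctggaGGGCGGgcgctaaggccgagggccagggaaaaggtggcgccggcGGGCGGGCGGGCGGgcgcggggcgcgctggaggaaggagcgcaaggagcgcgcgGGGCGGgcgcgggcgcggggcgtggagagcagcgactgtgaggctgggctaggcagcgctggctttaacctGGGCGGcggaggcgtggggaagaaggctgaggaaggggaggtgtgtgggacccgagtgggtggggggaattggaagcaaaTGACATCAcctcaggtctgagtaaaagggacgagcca
Car12: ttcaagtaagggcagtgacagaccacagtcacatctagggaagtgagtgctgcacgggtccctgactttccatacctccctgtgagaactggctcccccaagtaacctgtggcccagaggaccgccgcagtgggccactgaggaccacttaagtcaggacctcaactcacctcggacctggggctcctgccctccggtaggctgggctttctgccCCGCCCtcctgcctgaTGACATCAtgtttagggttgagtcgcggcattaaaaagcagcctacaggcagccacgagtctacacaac
Aqp5: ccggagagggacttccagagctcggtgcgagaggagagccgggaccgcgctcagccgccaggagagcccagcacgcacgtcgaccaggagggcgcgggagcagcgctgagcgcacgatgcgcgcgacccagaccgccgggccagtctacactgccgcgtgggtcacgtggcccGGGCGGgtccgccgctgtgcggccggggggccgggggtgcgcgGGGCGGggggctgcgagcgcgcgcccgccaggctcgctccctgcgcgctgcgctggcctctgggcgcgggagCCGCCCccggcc
Slc26a6: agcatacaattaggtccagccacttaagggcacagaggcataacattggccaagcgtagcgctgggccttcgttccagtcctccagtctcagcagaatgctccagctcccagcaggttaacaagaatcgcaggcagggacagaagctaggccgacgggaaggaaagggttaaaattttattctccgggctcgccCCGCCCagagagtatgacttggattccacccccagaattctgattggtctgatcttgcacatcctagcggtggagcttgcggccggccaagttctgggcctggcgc

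Cftr and Car12 both hold the letters TGACATCA, starting 13 bases after the start site in Cftr and 19 bases before it in Car12. Of 32851 RefSeq windows of this length, 8.83% hold TGACNTCA. Neither gene was called between the groups. GC boxes were found in 7 of the 7 windows, with 6 in Cftr, against 35.7% of all windows. The 7 windows are also rich in G and C, at 56.0% in Slc26a6 to 80.0% in Slc4a4 beside a median of 52.7% over all windows. No match was found in the 7 windows to the STAT letters TTCNNNGAA, which 8.3% of all windows hold, STAT factors being targets of LIF receptor signalling. The TEAD letters GGAATG (14.7% of all windows) were also without a match. So were AP-1 letters, TGANTCA (7.81%). The SOX letters AACAAT were in none of the 7 and in 10.7% of all windows. A TATA box, read as TATAAA, was in none of the 7 and in 13.6% of all windows. A match is a run of letters, not a measured binding site.

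Compared per length, the machinery split into an abundant and a scarce tier. On the scale of CPM per kilobase of the counted transcript, the means over 8 tumours ran from 79.4 for Ano1, 66.7 for Car2, 63.2 for Aqp5 and 52.1 for Slc12a2 down to 22.0 for Cftr, 13.6 for Slc4a4 and 11.8 for Aqp1. Slc26a6 (3.597) and Car12 (0.758) were the lowest. The ranges of neighbours in this order overlapped except between Slc12a2 and Cftr and between Slc26a6 and Car12, where the higher gene was higher in 8 of 8 tumours. Among the tumours labelled KO alone, the ranges of Ano1 (46.4 to 72.4) and Car2 (30.9 to 45.9) did not overlap either. Slc12a2, the next gene below Ano1 in those tumours, ranged from 34.8 to 48.4 and did overlap Ano1. In the tumours labelled WT, Ano1 (99.4 ± 8.15), Aqp5 (95.5 ± 41.5) and Car2 (93.9 ± 30.0) were at like levels, on the same scale (SD, n = 4). In those labelled KO, Ano1 (59.4 ± 12.4) was followed by Slc12a2 (40.1 ± 6.08), Car2 (39.4 ± 6.32) and Aqp5 (30.8 ± 12.4). The order over 8 tumours was the same with the deposited FPKM values, in which Ano1 and Slc4a4 were measured on another transcript.

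**Figure D2:**
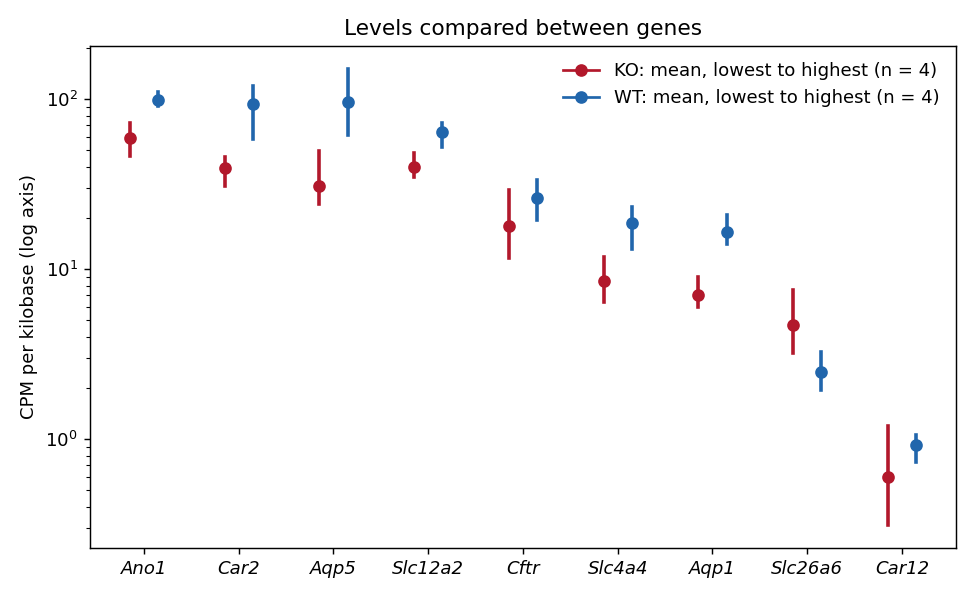
Levels of the 9 genes in CPM per kilobase of transcript on a log axis, in order of the mean over 8 tumours, as mean and lowest to highest of 4 tumours per group. Ano1, Car2, Aqp5 and Slc12a2 lie highest (52.1 to 79.4), and Slc26a6 is the gene whose mean is higher in the tumours labelled KO.

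Of the 9 genes, Car2, Aqp1 and Aqp5 were also called lower when set against epithelial RNA. When libraries were scaled to the summed counts of the 25 epithelial genes, none of which is among the 9, the median over all genes tested moved from 0.012 to 0.78 in log2, and 0.896% of genes were called lower and 70.5% higher. On that scale 3 of the 9 genes stayed called lower. They were Aqp5 (−0.88 ± 0.32), Aqp1 (−0.47 ± 0.18) and Car2 (−0.46 ± 0.19) (SE, edgeR adjusted p = 0.029, 0.0332 and 0.0494). With most genes called on that scale, the adjustment over genes raised p-values little. Car2 was near the threshold, its 95% interval ending at −0.038. Slc4a4 was at −0.36 and no longer called (edgeR adjusted p = 0.0824). Ano1 (0.008) and Slc12a2 (0.095) turned to just above 0, with 95% intervals of −0.35 to 0.36 and −0.23 to 0.42. Cftr (0.20) and Car12 (0.16) turned above 0 as well and were not called. Slc26a6 was called higher (1.71 ± 0.31, edgeR adjusted p = 0.000924), as most genes were. This scale sets a gene against epithelial RNA and shifts every gene up by a like amount. With library totals alone, 6 of the 9 genes were called lower, where 3108 of all genes were called lower and 900 higher and the median of all genes was −0.17.

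**Figure D3:**
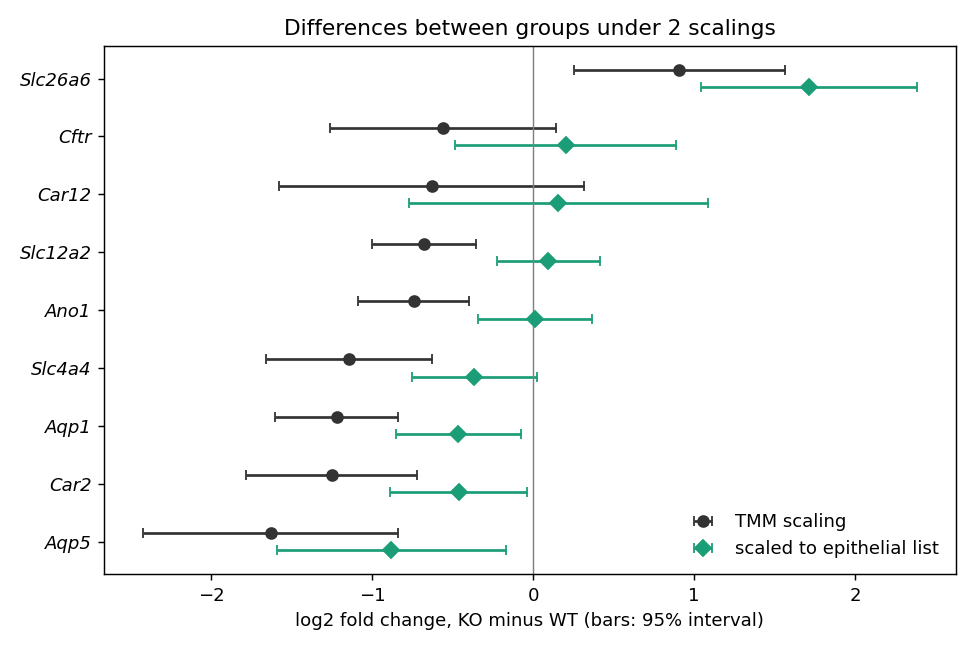
Log2 fold change of each gene, tumours labelled KO minus labelled WT, with its 95% interval, under TMM scaling (circles) and on the scale of epithelial RNA (diamonds). Under the second scaling Aqp5, Car2 and Aqp1 stay below 0, Ano1 and Slc12a2 sit at 0.008 and 0.095, and Slc26a6 moves from 0.91 to 1.71.

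Ratios of counts within a tumour do not depend on the scaling of its library. Of 5 ratios, Slc26a6 to Slc4a4, apical exchanger against basolateral bicarbonate entry, separated the groups. It was 0.241, 0.199, 0.315 and 0.0985 in KO replicates 1 to 4 and 0.0365, 0.0515, 0.0435 and 0.0684 in WT replicates 1 to 4. The lowest KO-labelled value exceeded the highest WT-labelled one, with a difference in mean log2 ratio of 2.02 (exact permutation p = 0.0286 two-sided, the smallest that 4 against 4 allows, adjusted p = 0.143 over 5 ratios). The ratio did not pass the adjusted threshold. Cftr to Ano1, the cyclic AMP-gated against the calcium-gated channel, differed by 0.12 (exact permutation p = 0.743), with a span of 0.22 to 0.598 for KO-labelled tumours and 0.266 to 0.481 for WT-labelled ones. Cftr to Slc12a2, chloride exit against chloride entry, differed by 0.035 (exact permutation p = 0.943). Aqp1 to Aqp5 differed by 0.38 and Car2 to Car12 by −0.39, both with overlapping groups (exact permutation p = 0.371 and 0.486).

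**Figure D4:**
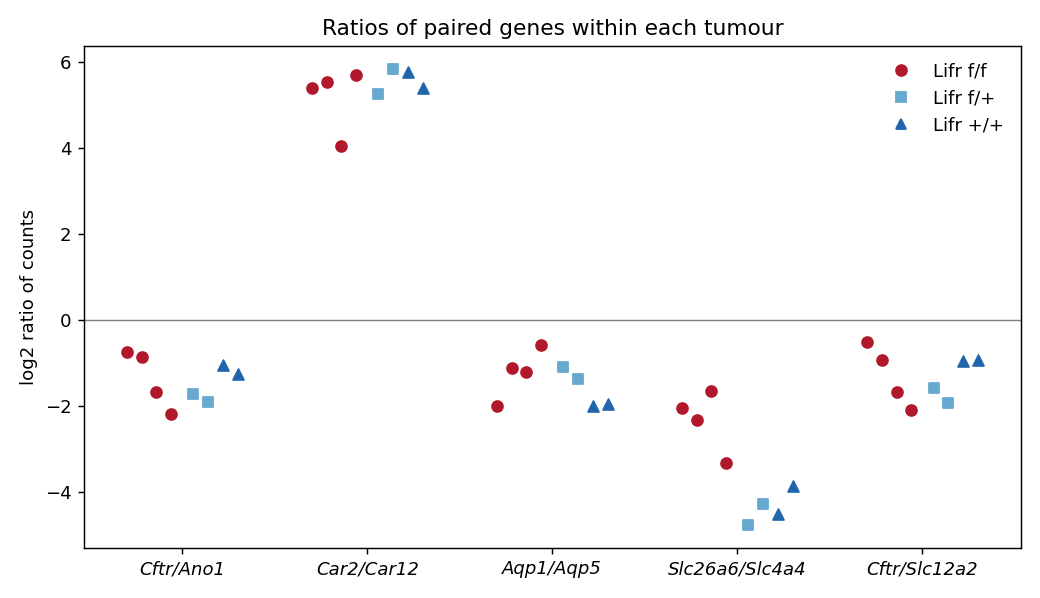
Log2 ratio of counts of paired genes within each tumour, with points by Lifr genotype. Slc26a6/Slc4a4 is the pair in which no tumour labelled KO (0.0985 to 0.315 as a ratio) overlaps one labelled WT (0.0365 to 0.0684).

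The tumours labelled WT were of 2 genotypes, and in a fit of all 3 Lifr genotypes the f/f tumours were compared with each. These comparisons share the 4 f/f libraries. Against the 2 +/+ tumours, Aqp5 (−2.04 ± 0.30), Aqp1 (−1.34 ± 0.19) and Car2 (−1.34 ± 0.28) were called lower (SE, edgeR adjusted p = 0.0303, 0.0303 and 0.0402), 3 of the 9 genes where 3.66% of all genes were called lower and 3.13% higher. Against the 2 f/+ tumours 5 of the 9 were called lower, where 6.6% of all genes were and 6.73% were called higher. They were Slc4a4 (−1.33 ± 0.25), Car2 (−1.16 ± 0.28), Aqp1 (−1.09 ± 0.19), Ano1 (−0.82 ± 0.18) and Slc12a2 (−0.82 ± 0.15) (SE, edgeR adjusted p = 0.0198, 0.0374, 0.018, 0.0287 and 0.0189). Aqp5 was at −1.05 there (edgeR adjusted p = 0.0619). Between f/+ and +/+ tumours 0 of the 9 genes were called by edgeR (1 with an unadjusted p under 0.05), and of all genes 0% were called lower and 0.00654% higher. The 1 of the 9 with that unadjusted p was Aqp5, at a mean of 98.5 CPM in f/+ and 197 CPM in +/+ tumours (−0.998, edgeR adjusted p = 0.90). With 2 control tumours a genotype these calls were unstable: with 1 tumour left out, between 0 and 4 genes were called lower against +/+ tumours and between 0 and 5 against f/+ tumours. None was called against +/+ tumours without KO replicate 2, KO replicate 3 or WT replicate 3, and none against f/+ tumours without WT replicate 2. In these 4 fits between 0.0064% and 0.0262% of all genes were called lower, so the loss of calls ran across the whole table.

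Other genes of the secretory pathway, taken from 6 lists, moved in both directions. So did all genes tested, with 10.8% called lower and 11.1% higher. Whether a list differed from that share was not tested. None of the 9 genes is in these lists. Of 16 chloride and potassium channel and sodium pump genes tested, 6 fell and 1 rose, with a median log2 fold change of −0.29. Kcnq1 and Kcne3, the pore and an accessory subunit of a basolateral potassium channel that sustains chloride secretion, fell together. Kcnq1 was at 31.1 ± 4.46 against 70.02 ± 14.0 CPM (log2 fold change −1.17 ± 0.16) and Kcne3 at 21.2 ± 4.03 against 58.1 ± 20.4 CPM (−1.45 ± 0.25; SD and SE, n = 4 each, edgeR adjusted p = 0.0044 and 0.00683). On the epithelial scale both were still called (−0.39 and −0.70). The chloride channel gene Clcn2 fell as well (−1.12), and was at −0.33 and not called on the epithelial scale. Of the sodium pump that powers the transporters, the beta subunit Atp1b3 was at 225 ± 7.64 CPM against 150 ± 14.6 CPM and rose by 0.59 in log2 (SD, n = 4 each, edgeR adjusted p = 0.00451).

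Of 18 bicarbonate, chloride and proton transporters tested, 5 fell and 1 rose, with a median of 0.042. The sodium-proton exchanger Slc9a2 was at 14.9 ± 3.25 CPM against 37.2 ± 5.33 CPM, a log2 difference of −1.32 ± 0.17 (SD and SE, n = 4 each, edgeR adjusted p = 0.0044), and stayed called lower on the epithelial scale (−0.54). The anion exchangers Slc4a3 (−0.93) and Slc4a2 (−0.38) fell too (edgeR adjusted p = 0.0046 and 0.00735). On the epithelial scale Slc4a3 was at −0.14 and not called, and Slc4a2 turned to 0.40 and was called higher. Slc9a4 (−0.97, edgeR adjusted p = 0.0289) lost its call without any 1 tumour labelled KO or WT replicate 1 (highest adjusted p = 0.0712). It was also not called on the epithelial scale (−0.17).

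Of 23 receptors and second messengers, 4 fell and 3 rose, with a median of 0.15. Adora2b, a receptor for adenosine that raises cyclic AMP, was at 21.1 ± 2.36 CPM against 6.95 ± 3.30 CPM and rose by 1.61 ± 0.28 in log2 (SD and SE, n = 4 each, edgeR adjusted p = 0.00738). The adenylyl cyclase Adcy9 rose too, to 39.3 ± 2.69 CPM against 23.2 ± 1.62 CPM (0.76 in log2, edgeR adjusted p = 0.0044). Another adenylyl cyclase, Adcy6, fell to 113 ± 7.04 CPM against 161 ± 34.4 CPM (−0.51 in log2, edgeR adjusted p = 0.0338). Pde4d of the same list fell as well (−0.58, edgeR adjusted p = 0.0419). F2rl1, the protease-activated receptor PAR2 (−1.21), and Itpr3, a channel that releases stored calcium (−0.83), fell (edgeR adjusted p = 0.0118 and 0.00787). On the epithelial scale F2rl1 was at −0.48 and Itpr3 at −0.066, and neither was called. Adcy6 (0.29) and Pde4d (0.20) turned above 0 on that scale and were not called. Macrophage RNA was also higher in these tumours, by 1.18 as a mean over the log2 CPM of its list.

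Of 14 kinases, scaffolds and trafficking partners of CFTR tested, 2 fell and 1 rose. Ezr, the ezrin gene, which ties apical membrane proteins to actin, fell from 729 ± 152 to 408 ± 55.7 CPM, and Stx1a, a syntaxin that binds CFTR, from 16.0 ± 1.85 to 9.55 ± 0.504 CPM (SD, n = 4 each, edgeR adjusted p = 0.0106 and 0.00558). On the epithelial scale Ezr was at −0.048 and Stx1a turned to 0.036, neither called. Wnk1, a kinase that regulates chloride transporters, rose by 0.43 (edgeR adjusted p = 0.0236). That call did not hold with library totals alone (0.25), nor when KO replicate 1, 2 or 4 or WT replicate 3 was left out. Of 10 other carbonic anhydrases tested 1 fell, Car5b of the mitochondria (−0.80, edgeR adjusted p = 0.0202), a call that did not hold on leaving out KO replicate 1, KO replicate 2 or WT replicate 3 (up to an edgeR adjusted p of 0.0577). Of 4 other aquaporins tested 0 were called by edgeR at the adjusted threshold, and the highest means over 8 tumours were those of Aqp9 (44.7 ± 15.04 against 28.7 ± 10.5 CPM) and Aqp12 (6.52 ± 5.94 against 1.63 ± 2.38 CPM, SD, n = 4 each). Aqp12, a water channel of acinar cells, was at 12.2 and 11.0 CPM in KO replicates 1 and 3 and at 0.655 CPM in KO replicate 4, so its rank rests on those 2 tumours, and a log2 difference of 1.98 became −0.73 with acinar RNA in the fit.

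**Figure D5:**
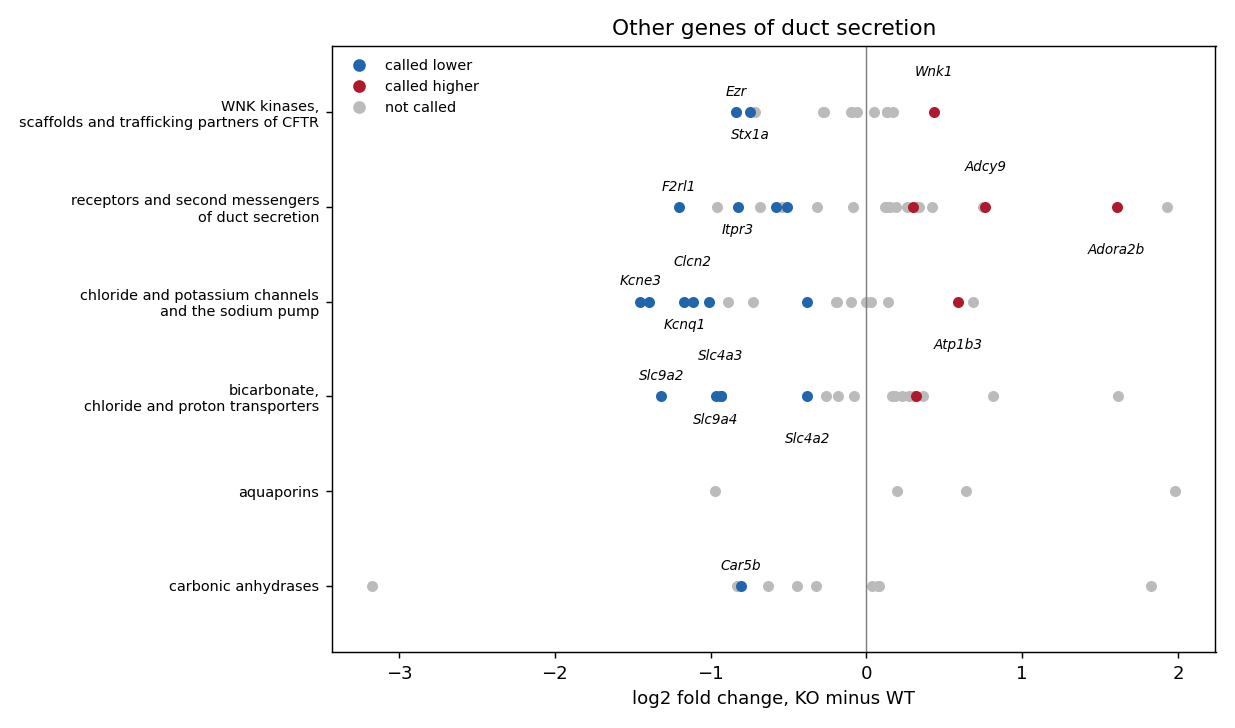
Log2 fold change, tumours labelled KO minus labelled WT, of the tested genes in 6 lists around duct secretion, with genes called lower in blue, called higher in red and the rest in grey. Channels and exchangers such as Kcne3 (−1.45), Slc9a2 (−1.32) and Kcnq1 (−1.17) lie to the left, and Adora2b (1.61) and Adcy9 (0.76) to the right.

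Across the 8 tumours Ano1 and Slc12a2 had the most alike patterns of any pair among the 9 genes. The root mean square difference of their log2 CPM, after centring each gene on its mean, was 0.124 (8 tumours), and the next pair, Slc4a4 and Aqp1, was at 0.309. Among 12408 other genes, Cdh1, which codes for E-cadherin, was nearest to Slc12a2 (0.0443) and Lad1 nearest to Ano1 (0.0641). The nearest to Slc4a4 was Gprc5b (0.0997), to Aqp1 Mpzl1 (0.113) and to Car2 Arhgap44 (0.131). Kcne3 was the third nearest gene to Aqp5 (0.236) after Tspan12 (0.23) and Vsig2 (0.233). The distance is not scaled to the spread of a gene, which as SD of log2 CPM was 0.412 for Slc12a2 and 1 for Aqp5. Nearest to Cftr was Sema7a (0.249), to Car12 Gp1bb (0.232) and to Slc26a6 Maob (0.162). These genes share their libraries and were picked as nearest, so the distances are a description.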

How the data were processed

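RNA of sorted EpCAM-positive tumour cells was sequenced, with 1 library per mouse, 4 tumours labelled KO and 4 labelled WT. Groups come from the sample titles and Lifr genotypes from the genotype labels. Replicate numbers are in listing order and pair no tumours. The deposited counts are raw tags over exons (mm10), made by the authors with the HOMER program analyzeRepeats.pl, genes condensed and strand set to plus, per the file headers. Deposited FPKM values were made by that program too, per the file headers. The submitters' processing notes also name FastQC 0.11.2, STAR 2.4.0k and edgeR 3.6.8, without roles. Strandedness is not given in the sources used here. The counts were 73.5% to 80.2% of the totals in the headers, and no column of other samples was found.

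The main test was the quasi-likelihood test of edgeR 4.0.16 under R 4.3.3, on TMM-scaled libraries. Low genes were removed by filterByExpr at a count of 10 and a total of 15. SE is the log2 fold change over the square root of its F value. The fit of 3 genotypes covered 15284 genes. Within-tumour ratios used counts + 0.5 and an exact two-sided permutation test over 70 assignments. Lists of other cell types were compared by the same test on mean log2 CPM. Alternatives used DESeq2 1.42.0, limma 3.58.1 on log2(FPKM + 1), other scalings, covariates and sets of tumours. In simulated counts of 14728 genes for this comparison, edgeR called 53 of 98 genes changed by 1 and 90 of 99 changed by 2 on the log2 scale, with 8 false calls. P-values measure the spread between these tumours. The 9 genes, the lists and the tests were chosen with earlier results of these data known. The rule for named genes took the 9 genes, Lifr and Epcam. From each pathway list it took up to 4 called genes with the smallest p, or the 2 most abundant where none was called. It also took up to 3 nearest genes to each of the 9. Krt19, Sox17, Pecam1, Gm15592, Adcy6 and Pde4d were named after their values were seen. Some items of the genotypes, lists and motifs are not reported here.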

Additional observations from a re-analysis of the deposited data

Results flagged for a closer look

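Aqp5 in KO replicate 1 was at 76.3 CPM, while the other 3 tumours labelled KO lay between 37.5 and 38.5 CPM. The gap to the next tumour was 0.975 of the range of the group, above the 95% critical value of Dixon's test for 4 samples. Of 18 groups of 4 tumours examined this was the only one so far apart, and chance gives about 1 in 20. Without KO replicate 1 the log2 fold change of Aqp5 was −1.97, against −1.63 with all tumours.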

How the results depend on the processing

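With each of 8 tumours left out in turn, the 6 genes called lower kept their calls. In these fits 6 to 7 of the 9 were called lower, beside 5.59% to 10.6% of all genes. Called higher were 0 to 1 (1 without KO replicate 4 or WT replicate 2, Slc26a6). Of all genes, 1446 of 14919 were called higher without KO replicate 4 and 1320 of 14820 without WT replicate 2. The count called lower was 3 with libraries scaled to the epithelial list (0.896% of all genes) and 3 with only +/+ controls (3.93%). It was 1 (Aqp5) with the number of floxed alleles as a linear term (0.19%). It was 4 with the acinar list as covariate (6.93%) and 5 with only f/+ controls (6.01%). The count called higher was 1 with DESeq2, which called 2085 of all genes higher, and 1 on the epithelial scale, where 70.5% were. On that scale the log2 fold changes of Cftr (0.20), Ano1 (0.0084), Slc12a2 (0.095) and Car12 (0.16) changed sign. So did those of Slc4a2 (0.40), Stx1a (0.036), Adcy6 (0.29) and Pde4d (0.20), and that of Aqp12 was −0.73 with the acinar list as covariate. The cause was not tested. For f/f against +/+ tumours, 6 genes were called lower with library totals alone (8.56% of all genes, against 3 and 3.66% with TMM), and 0 to 4 with 1 tumour left out (0.0064% to 3.66% of all genes). For f/f against f/+ tumours it was 0 to 5 with 1 tumour left out (0.00642% to 6.69% of all genes). Between f/+ and +/+ tumours, Aqp1 ranged from −0.47 to 0.021, Car2 from −0.76 to 0.24 and Slc26a6 from −0.29 to 0.45. A genotype left with 1 tumour was assumed to vary like the others. The log2 ratio differences ranged from −0.088 to 0.39 for Cftr/Ano1 and from −0.23 to 0.30 for Cftr/Slc12a2, and the marker differences from −0.25 to 0.14 (endothelial) and −0.17 to 0.88 (erythroid). Car12 had no value in the filtered FPKM fits. At 17 to 87 counts, its changes are the least certain of the 9. No paired analysis was possible because the numbers in the titles are animal identifiers that no tumours share.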

Other observations

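The other marker lists that the sort could hold were measured in the same libraries. Of 12 pan-leukocyte genes 11 rose and 0 fell in the tumours labelled KO (edgeR adjusted p under 0.05), with 0.428% to 0.498% of the counts against 0.225% to 0.33%. Of 12 fibroblast genes 2 rose, and the list differed by 1.09 in mean log2 CPM (exact two-sided permutation p = 0.0571, adjusted p = 0.103 over 9 lists). Of 12 acinar genes 0 were called by edgeR, with a difference of 3.50 (exact permutation p = 0.0857, adjusted p = 0.129). The 8 islet genes differed by −0.26 (exact permutation p = 0.571) with 0 called by edgeR.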
